A study of Mus musculus with 20 samples.

Results

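The genes described here are 37 genes of glycolysis and of the response to low oxygen, a list drawn up by symbol: glucose transporters, glycolytic enzymes and their regulators, lactate dehydrogenases and lactate transporters, pyruvate dehydrogenase and its kinases, subunits of the hypoxia-inducible factors, their prolyl hydroxylases and genes induced by these factors. A member counted as measured where the platform annotation gave at least 1 probe set its symbol alone, and the probe set with the highest mean over the 20 arrays stood for it. This held for 33 of the 37 members, among 22180 genes measured in the same way, while Gpi1, Aldoa, Eno1 and Ankrd37 had no such probe set and were not analysed here.

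Total RNA of abdominal skin was hybridised to Affymetrix arrays, with 5 animals in each of 4 groups, in a study of what loss of Zfp36 in keratinocytes does to skin under imiquimod. The groups were knockouts (zfp36 fl/fl K14 cre) with imiquimod, knockouts with mock treatment, littermate controls (zfp36 fl/fl) with imiquimod and controls with mock treatment. Imiquimod, an agonist of Toll-like receptor 7 used to provoke psoriasis-like inflammation, was put on the skin on 5 consecutive days, and skin was collected 4 h after the last dose. The product of Zfp36 is tristetraprolin, which recognises AU-rich stretches in messenger RNAs and hastens the decay of these RNAs. All 4 groups carried the floxed allele, so the genotypes differed by the Cre transgene, which the keratin 14 promoter drives in basal keratinocytes and their progeny, and other cells of the skin kept an intact gene. The sources used here give no strain, age or sex of the mice.

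Glycolysis turns glucose into pyruvate in the cytosol, and lactate dehydrogenase and the monocarboxylate transporters dispose of that pyruvate as lactate. The hypoxia-inducible factors are pairs of an oxygen-labile alpha subunit, such as HIF1A or EPAS1, with ARNT; prolyl hydroxylases of the EGLN family mark the alpha subunits for degradation while oxygen is present, and the stabilised factor raises transcription of many glycolytic genes and of genes such as Vegfa. The epidermis has no vessels of its own and is known for a high rate of lactate formation.

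The targeted gene was measured first. Zfp36 read 5.47, 7.41, 6.12, 7.18 and 5.82 in imiquimod-treated knockouts, against 8.04, 8.40, 7.99, 7.89 and 7.68 in imiquimod-treated controls, on the deposited log2 scale. With mock treatment it read 5.12, 6.84, 7.12, 4.61 and 3.47 in knockouts, against 7.28, 7.45, 7.74, 7.22 and 7.61 in controls. Every knockout array lay below every control array of the same treatment, by 1.60 on average with imiquimod and 2.03 with mock (exact two-sided permutation p = 0.00794 in each, the smallest that 5 against 5 allows). In the limma fit over all genes Zfp36 did not pass in either treatment (adjusted p = 0.221 with imiquimod and 0.999 with mock). Signal remained in every knockout, and whether the probe set lies in the deleted part of the gene was not checked here.

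The 20 arrays had medians between 4.94 and 5.04, and pairs of them correlated at 0.946 to 0.988 over all 41345 probe sets. Arrays stood apart in hair shaft and follicle genes. The mean of 27 such genes was 9.10, 5.97, 5.85, 7.42 and 5.72 in the imiquimod-treated knockouts, against 9.88, 7.82, 5.95, 9.73 and 10.15 in mock-treated knockouts. It was 6.03, 5.77, 5.50, 6.05 and 9.32 in imiquimod-treated controls, against 10.14, 10.20, 9.19, 10.07 and 5.98 in mock-treated controls. Imiquimod-treated skin was mostly low and mock-treated skin mostly high, with 1 array in each group lying on the other side: replicate 1 of the imiquimod-treated knockouts, replicate 3 of the mock-treated knockouts, and replicate 5 of both control groups. Results are given below with these 4 arrays and without them. In these skin pieces, fewer cells of a type cannot be told apart from less RNA per cell.

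After imiquimod, 16 of the 33 members rose in knockouts and none fell, where 11.1% of all genes rose and 9.71% fell. In controls 13 of the 33 members rose and none fell, where 6.47% of all genes rose and 4.37% fell. A gene is said to rise or fall where the limma fit over all 22180 genes gave an adjusted p under 0.05. In both genotypes the same 12 members rose: the glucose transporter Slc2a1, the enzymes Hk2, Pfkl, Pgk1, Pgam1 and Pkm, the regulator Pfkfb4, the lactate transporter Slc16a1, the factor subunit Hif1a, the prolyl hydroxylases Egln1 and Egln3, and Vegfa. A further 4 members, Hk1, Tpi1, Ldha and Slc16a3, passed the test in knockouts alone and Epas1 in controls alone, although for none of these 5 did the difference between the genotypes' responses pass the test. The other 16 members passed in neither genotype. The median difference of the 33 members was 0.32 in knockouts and 0.39 in controls on the log2 scale, against 0.00 in both for all genes. The knockout median was 0.20 without replicate 1 of the mock-treated knockouts, and the control median was 0.09 with the mean of hair genes as a covariate.

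For 13 members every imiquimod-treated knockout array lay above every mock-treated knockout array, as for 7.16% of all genes. In controls this held for 9 members, against 5.60% of all genes. Of all 22180 genes, 669 in knockouts and 446 in controls passed the test and at least doubled or halved. The 6 members that at least doubled in knockouts were Slc16a1, Slc2a1, Egln3, Hif1a, Pgk1 and Pgam1, and Slc16a1, Slc2a1 and Egln3 also at least doubled in controls. The plot of responses by role places the knockout points of these 6 furthest to the right, while in controls Vegfa lay to the right of Pgk1, Pgam1 and Hif1a, and it shows the pyruvate dehydrogenase group and most hypoxia-induced genes around 0.

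**Figure D1:**
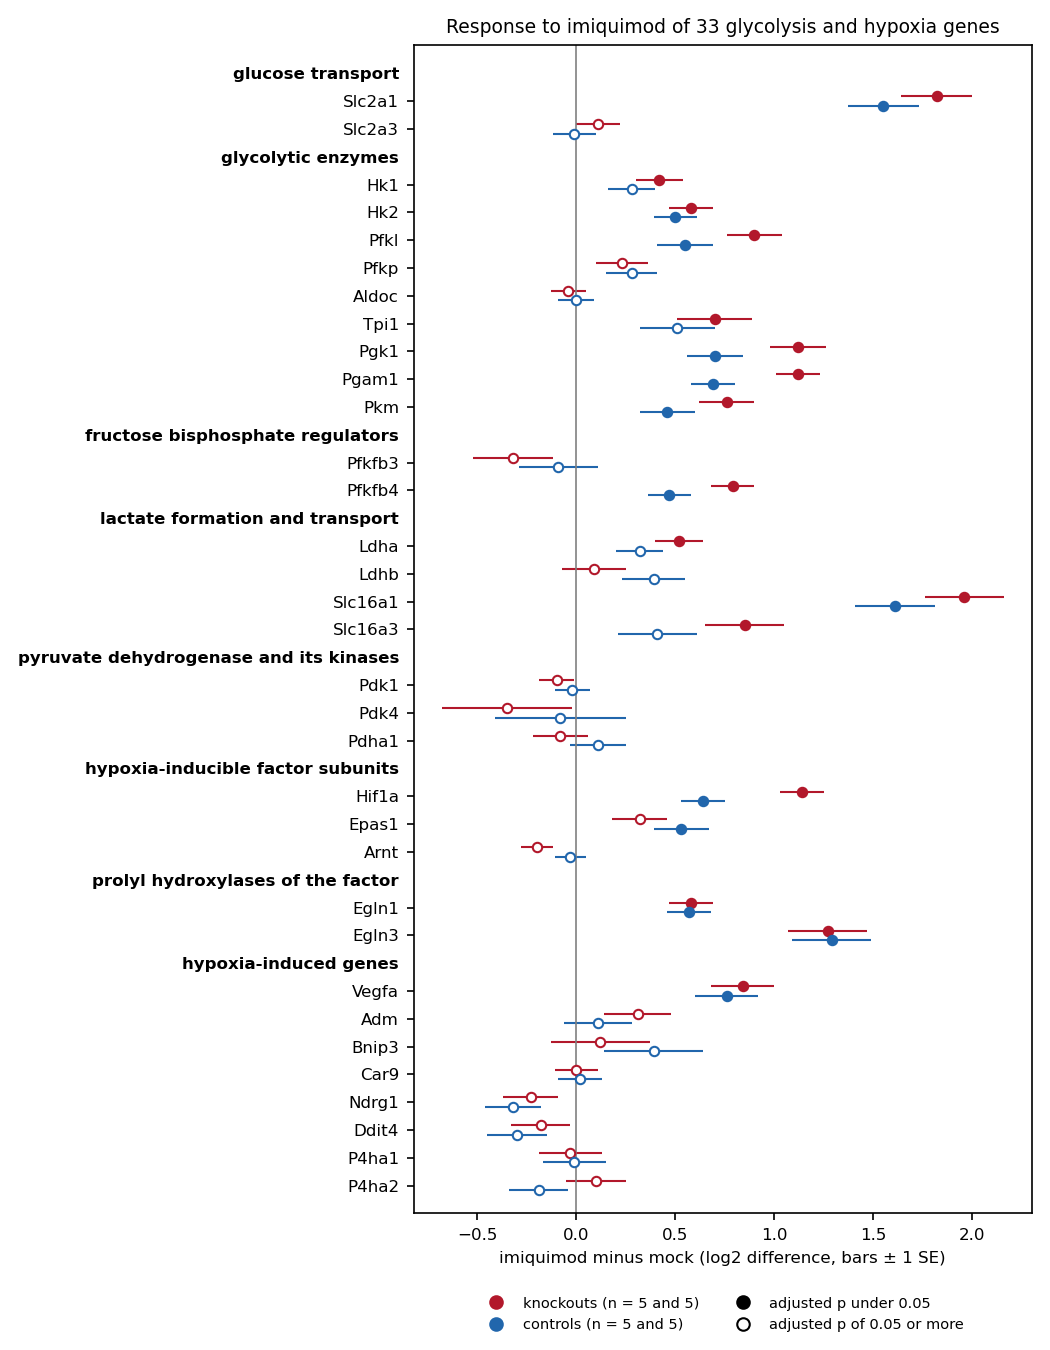
Log2 difference of imiquimod-treated over mock-treated skin for the 33 measured members, grouped by role, in knockouts (upper point of each pair) and controls (lower point), with bars of 1 standard error and 5 arrays a group. Filled points passed an adjusted p of 0.05: 16 in knockouts and 13 in controls, all to the right of 0.

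To show what the promoters of the strongest responders look like, the windows from 250 bases before to 50 bases after the start of these 6 genes are printed from RefSeq (GRCm38.p6), 5′ to 3′ on the gene's own strand, together with Bnip3, a hypoxia-induced gene that did not pass the test. Capitals mark the core of the hypoxia response element searched for, ACGTG or GCGTG on either strand, whose reverse strand reads CACGT or CACGC; the palindrome CACGTG counts as a match on each strand.
Slc2a1 (chr4:119108495-119108794, plus strand): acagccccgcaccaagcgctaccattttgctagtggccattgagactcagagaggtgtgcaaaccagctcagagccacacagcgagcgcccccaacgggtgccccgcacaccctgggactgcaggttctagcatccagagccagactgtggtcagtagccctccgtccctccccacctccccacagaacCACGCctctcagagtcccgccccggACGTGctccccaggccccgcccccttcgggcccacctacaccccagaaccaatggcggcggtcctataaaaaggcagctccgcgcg
Slc16a1 (chr3:104638414-104638713, plus strand): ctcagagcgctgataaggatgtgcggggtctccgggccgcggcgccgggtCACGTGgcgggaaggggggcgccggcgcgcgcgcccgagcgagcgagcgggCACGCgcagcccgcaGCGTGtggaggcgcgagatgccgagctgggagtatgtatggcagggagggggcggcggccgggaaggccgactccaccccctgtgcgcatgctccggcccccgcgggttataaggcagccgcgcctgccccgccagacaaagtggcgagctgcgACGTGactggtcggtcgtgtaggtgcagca
Pgk1 (chrX:106186850-106187149, plus strand): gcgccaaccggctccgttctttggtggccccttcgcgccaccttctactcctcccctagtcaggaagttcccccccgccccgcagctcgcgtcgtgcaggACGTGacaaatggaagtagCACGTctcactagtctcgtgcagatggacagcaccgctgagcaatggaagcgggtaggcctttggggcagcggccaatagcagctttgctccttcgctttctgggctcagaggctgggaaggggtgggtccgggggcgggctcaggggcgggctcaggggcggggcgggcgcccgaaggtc
Pgam1 (chr19:41911621-41911920, plus strand): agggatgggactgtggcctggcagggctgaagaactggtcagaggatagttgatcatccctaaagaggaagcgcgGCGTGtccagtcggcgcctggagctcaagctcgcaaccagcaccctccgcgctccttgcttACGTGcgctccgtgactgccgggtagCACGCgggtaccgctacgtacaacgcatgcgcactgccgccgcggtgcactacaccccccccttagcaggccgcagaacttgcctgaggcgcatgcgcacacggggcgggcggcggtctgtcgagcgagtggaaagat
Hif1a (chr12:73907617-73907916, plus strand): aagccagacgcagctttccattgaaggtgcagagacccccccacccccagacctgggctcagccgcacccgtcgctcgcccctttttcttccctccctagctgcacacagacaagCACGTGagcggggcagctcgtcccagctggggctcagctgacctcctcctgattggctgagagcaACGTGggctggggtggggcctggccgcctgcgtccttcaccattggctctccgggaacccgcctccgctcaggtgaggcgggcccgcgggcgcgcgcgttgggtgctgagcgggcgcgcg
Egln3 (chr12:54203825-54204124, minus strand): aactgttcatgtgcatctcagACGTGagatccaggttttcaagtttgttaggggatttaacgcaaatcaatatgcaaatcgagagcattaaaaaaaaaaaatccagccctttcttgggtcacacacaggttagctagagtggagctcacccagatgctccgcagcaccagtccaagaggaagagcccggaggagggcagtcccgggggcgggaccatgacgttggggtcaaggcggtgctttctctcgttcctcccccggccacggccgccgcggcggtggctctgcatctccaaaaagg
Bnip3 (chr7:138909457-138909756, minus strand): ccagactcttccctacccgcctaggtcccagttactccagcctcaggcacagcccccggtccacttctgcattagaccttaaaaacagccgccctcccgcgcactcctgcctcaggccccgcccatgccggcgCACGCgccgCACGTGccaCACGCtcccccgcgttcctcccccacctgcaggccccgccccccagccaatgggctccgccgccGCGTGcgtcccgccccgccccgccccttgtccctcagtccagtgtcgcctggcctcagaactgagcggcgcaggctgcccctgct

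Windows were on record for 34 of the 37 members (45 windows in all, since some genes have several starts). At least 1 match stood in a window of 32 of these 34 members, against 46.7% of all 27025 genes with a window. For ACGTG alone the share was 22 of 34 members, or 64.7%, against 21.8% of all genes, and for GCGTG alone 24 of 34, or 70.6%, against 35.2%. Among members with a window that rose in either genotype 13 of 16 had ACGTG and 9 of 16 had GCGTG. Among members that passed in neither genotype 7 of 14 had ACGTG and 13 of 14 had GCGTG. With either core the counts were 15 of 16 and 14 of 14. These small counts were not tested against each other. Slc16a1 and Bnip3 each held 5 matches, Hif1a and Pgam1 3 each, Slc2a1 and Pgk1 2 each and Egln3 1. Among these printed genes the number of matches did not order the responses. They were picked by their responses, so this does not extend to the other members. Base composition and the number of windows per gene were not matched in these shares, and a match is a description of letters, not a site.

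Of the 2 measured glucose transporters 1 rose in both genotypes. Slc2a1, which encodes the widely expressed glucose transporter GLUT1, read 9.88, 10.16, 9.88, 10.19 and 9.98 in imiquimod-treated knockouts, against 7.94, 8.55, 8.27, 8.11 and 8.13 in mock-treated knockouts. In controls it read 9.52, 9.62, 9.93, 9.61 and 8.99 with imiquimod, against 7.53, 7.71, 8.50, 7.86 and 8.34 with mock treatment. The treated and mock arrays did not overlap in either genotype, and the lowest treated control, replicate 5, was one of the arrays high in hair genes. The rise was 1.82 ± 0.18 (log2, ± SE) or 3.53-fold in knockouts (adjusted p = 3.95e-07) and 1.55 ± 0.18 or 2.92-fold in controls (adjusted p = 4.44e-06). A second, dimmer probe set named Slc2a1 alone rose by 0.55 in knockouts (adjusted p = 0.000897 over all probe sets) and differed by 0.30 in controls, short of the test (adjusted p = 0.0766). Slc2a3, a transporter of high affinity known from neurons and blood cells, differed by 0.11 ± 0.11 in knockouts and -0.01 ± 0.11 in controls, both short of the test.

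Of 9 measured glycolytic enzymes, 7 rose in knockouts and 5 in controls. Phosphoglycerate kinase Pgk1, the first step that yields ATP, read 9.98, 10.13, 9.77, 10.18 and 9.97 in imiquimod-treated knockouts, against 8.67, 9.14, 9.23, 8.65 and 8.72 in mock-treated knockouts, with no overlap. In controls it read 9.64, 9.62, 9.86, 9.97 and 9.27 with imiquimod, against 8.86, 8.95, 8.98, 8.75 and 9.33 with mock treatment, where the overlap came from replicate 5 of each group. The rise was 1.12 ± 0.14 in knockouts (adjusted p = 1.02e-05) and 0.70 ± 0.14 in controls (adjusted p = 0.00251). Pgam1, the phosphoglycerate mutase of the next step, read 8.67, 8.99, 8.85, 9.24 and 8.68 in imiquimod-treated knockouts, against 7.89, 7.85, 7.79, 7.76 and 7.52 in mock-treated knockouts. In controls it read 8.52, 8.42, 8.68, 8.53 and 8.23 with imiquimod, against 7.83, 7.78, 7.59, 7.76 and 7.95 with mock treatment. Pgam1 arrays did not overlap in either genotype, and the rises were 1.12 ± 0.11 (adjusted p = 4.12e-07) and 0.69 ± 0.11 (adjusted p = 0.000217). A second, dimmer probe set named Pgam1 alone differed by only 0.12 in knockouts and 0.21 in controls (adjusted p = 0.744 and 0.566 over all probe sets), so this gene's probe sets disagree.

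Other enzymes rose by smaller amounts. Pfkl, the liver-type phosphofructokinase of the committed step, read 7.21 to 7.65 in imiquimod-treated knockouts, against 6.16 to 6.91 with mock treatment, and rose by 0.90 ± 0.14 (adjusted p = 0.000115); in controls it rose by 0.55 ± 0.14 (adjusted p = 0.0142). Pkm, the pyruvate kinase gene that makes the last step, read 10.43 to 10.94 in imiquimod-treated knockouts, against 9.57 to 10.20 with mock treatment, and rose by 0.76 ± 0.14 (adjusted p = 0.000682). Its rise in controls, 0.46 ± 0.14, was close to the threshold (adjusted p = 0.0415) and fell short of it in 8 of 20 fits that left out 1 array, where the adjusted p reached 0.119. Hexokinase 2, the inducible enzyme that traps glucose in the cell, rose by 0.58 ± 0.11 in knockouts and 0.50 ± 0.11 in controls, with no overlap in either.

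The remaining enzymes split by genotype or did not pass. Hexokinase 1 rose by 0.42 ± 0.12 in knockouts (adjusted p = 0.0133) and differed by 0.28 ± 0.12 in controls (adjusted p = 0.139). Triose phosphate isomerase Tpi1 read 9.41, 9.93, 9.79, 9.94 and 9.95 in imiquimod-treated knockouts, against 8.81, 9.42, 9.55, 8.88 and 8.84 in mock-treated knockouts, a rise of 0.70 ± 0.19 (adjusted p = 0.0119). Controls had 9.55, 9.83, 9.70, 9.80 and 9.26 with imiquimod, against 8.84, 8.89, 9.22, 8.80 and 9.86 with mock treatment, a difference of 0.51 ± 0.19 that did not pass (adjusted p = 0.101). The mock-treated control with 9.86 is replicate 5, low in hair genes, and without it the difference was 0.69 and passed (adjusted p = 0.00805). The platelet-type phosphofructokinase Pfkp and the aldolase Aldoc, known from brain, differed by 0.23 ± 0.13 and -0.04 ± 0.09 in knockouts and by 0.28 ± 0.13 and 0.00 ± 0.09 in controls, none past the test.

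Both bifunctional enzymes that set the level of the fructose bisphosphate activating phosphofructokinase were measured, and 1 of the 2 rose. Pfkfb4 read 6.66, 7.04, 6.64, 7.04 and 6.82 in imiquimod-treated knockouts, against 6.04, 5.98, 6.01, 6.08 and 6.16 in mock-treated knockouts. In controls it read 6.61, 6.90, 6.74, 6.49 and 6.28 with imiquimod, against 6.02, 6.24, 6.20, 5.97 and 6.23 with mock treatment. No arrays overlapped, and the rises were 0.79 ± 0.11 (adjusted p = 2.59e-05) and 0.47 ± 0.11 (adjusted p = 0.00606). Pfkfb3, a target of hypoxia-inducible factors with strong kinase activity, differed by -0.32 ± 0.20 in knockouts and -0.09 ± 0.20 in controls (adjusted p = 0.328 and 0.865), and its highest value, 7.42, came from the mock-treated knockout that was low in hair genes.

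Of 4 genes of lactate formation and transport 3 rose in knockouts and 1 in controls. Slc16a1, which encodes the monocarboxylate transporter MCT1, read 9.05, 9.33, 9.01, 9.46 and 9.28 in imiquimod-treated knockouts, against 7.37, 7.50, 7.79, 6.70 and 6.96 in mock-treated knockouts. Controls had 9.08, 9.06, 9.26, 9.11 and 8.53 with imiquimod, against 7.03, 7.28, 7.43, 7.19 and 8.07 with mock treatment. Treated and mock arrays were well separated in knockouts and, in controls, came nearest in replicate 5 of each group. The rise was the largest among the 33 members in both genotypes, 1.96 ± 0.20 or 3.90-fold in knockouts (adjusted p = 6.47e-07) and 1.61 ± 0.20 or 3.05-fold in controls (adjusted p = 1.21e-05).

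The transporter MCT4, which exports lactate from strongly glycolytic cells and is encoded by Slc16a3, read 6.25, 6.50, 6.12, 7.09 and 6.30 in imiquimod-treated knockouts, against 5.37, 5.89, 5.85, 5.49 and 5.42 in mock-treated knockouts. Controls had 5.97, 6.21, 6.30, 6.27 and 5.41 with imiquimod, against 5.42, 5.47, 5.86, 5.26 and 6.12 with mock treatment, and these overlapped through replicate 5 of each group. The rise of 0.85 ± 0.20 in knockouts passed (adjusted p = 0.00435) and the difference of 0.41 ± 0.20 in controls did not (adjusted p = 0.224). The highest knockout, 7.09, is replicate 4, which also had the highest mean of neutrophil genes; the part of neutrophils in this value was not tested. Ldha, the lactate dehydrogenase subunit that favours lactate formation, rose by 0.52 ± 0.12 in knockouts (adjusted p = 0.00314) with no overlap, and differed by 0.32 ± 0.12 in controls (adjusted p = 0.0889). In controls it passed without replicate 5 of the mock group (adjusted p = 0.0246) or of the imiquimod group (adjusted p = 0.0323). Ldhb, the subunit that favours the reverse reaction, differed by 0.09 ± 0.16 in knockouts and 0.39 ± 0.16 in controls, both short of the test.

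None of the 3 measured members at the step that sends pyruvate into mitochondria passed the test. Pdha1, a catalytic subunit of pyruvate dehydrogenase, and its inhibitory kinases Pdk1 and Pdk4 differed by -0.08 ± 0.14, -0.10 ± 0.09 and -0.35 ± 0.33 in knockouts and by 0.11 ± 0.14, -0.02 ± 0.09 and -0.08 ± 0.33 in controls. These 3 did not reach even an unadjusted p under 0.05 in either genotype. Pdk4 varied widely among animals: it spanned 6.45 to 6.82 in imiquimod-treated knockouts, against 6.24 to 7.56 in mock-treated knockouts, and 6.41 to 8.11 in imiquimod-treated controls, against 6.11 to 7.95 in mock-treated controls. The limit here is its large standard error, 0.33 in each genotype.

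Of 3 factor subunits 1 rose in knockouts and 2 in controls, and Hif1a rose in both. Hif1a, the alpha subunit found in most cells, read 9.55, 9.59, 9.36, 9.48 and 9.31 in imiquimod-treated knockouts, against 8.47, 8.30, 8.52, 8.07 and 8.22 in mock-treated knockouts. In controls it read 9.02, 9.03, 9.28, 9.12 and 8.78 with imiquimod, against 8.52, 8.59, 8.18, 8.46 and 8.30 with mock treatment. Treated and mock arrays did not overlap in either genotype, and the rises were 1.14 ± 0.11 or 2.21-fold in knockouts (adjusted p = 2.03e-07) and 0.64 ± 0.11 or 1.55-fold in controls (adjusted p = 0.000341). A dimmer second probe set of Hif1a rose as well, by 0.71 in knockouts and 0.44 in controls (adjusted p = 0.000422 and 0.0308 over all probe sets). These are messenger levels, and the protein, on which oxygen acts, was not measured.

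Epas1, the alpha subunit known from endothelium, rose in controls by 0.53 ± 0.14 (adjusted p = 0.0213) and differed by 0.32 ± 0.14 in knockouts (adjusted p = 0.139). Neither state was firm: the control call was lost in 5 of 20 fits that left out 1 array (adjusted p up to 0.0685), and the knockouts passed without replicate 3 of the mock group (adjusted p = 0.0416). Arnt, the shared partner subunit, differed by -0.20 ± 0.08 in knockouts and -0.03 ± 0.08 in controls and passed in neither.

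Both measured prolyl hydroxylases rose in both genotypes. Egln3, itself a known target of the factors, read 9.52, 10.05, 10.10, 9.46 and 10.09 in imiquimod-treated knockouts, against 8.34, 8.91, 7.77, 8.87 and 8.96 in mock-treated knockouts. Controls had 10.07, 10.19, 10.33, 9.98 and 9.63 with imiquimod, against 8.63, 8.63, 9.07, 8.62 and 8.80 with mock treatment. The arrays of both genotypes were fully separated by treatment, and the rises were nearly equal, 1.27 ± 0.20 in knockouts (adjusted p = 0.00012) and 1.29 ± 0.20 in controls (adjusted p = 0.00018). Egln1, the main oxygen sensor of the family, rose by 0.58 ± 0.11 and 0.57 ± 0.11 (adjusted p = 0.000774 and 0.00166), again without overlap.

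Of 8 measured hypoxia-induced members 1 rose in each genotype, and it was Vegfa in both. This is 12.5% of them, against 11.1% of all genes in knockouts and 6.47% in controls. Vegfa, the growth factor of blood vessels that keratinocytes also release, read 8.09, 8.37, 8.49, 8.13 and 8.55 in imiquimod-treated knockouts, against 7.25, 7.50, 8.12, 7.42 and 7.14 in mock-treated knockouts. In controls it read 8.31, 8.30, 8.24, 8.04 and 7.80 with imiquimod, against 7.21, 7.25, 7.44, 7.27 and 7.73 with mock treatment. Knockout arrays overlapped through replicate 3 of the mock group, low in hair genes, and control arrays did not overlap. The rises were 0.84 ± 0.16 (adjusted p = 0.000673) and 0.76 ± 0.16 (adjusted p = 0.003).

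The other 7 passed in neither genotype. Bnip3, a mitophagy receptor often used as a readout of the factors, read 6.75, 7.27, 6.95, 7.15 and 7.42 in imiquimod-treated knockouts, against 6.29, 7.35, 7.66, 6.82 and 6.84 in mock-treated knockouts. Controls had 7.47, 7.67, 7.12, 7.41 and 6.82 with imiquimod, against 6.29, 6.68, 7.37, 6.58 and 7.61 with mock treatment. All 4 groups overlapped, and the differences were 0.12 ± 0.25 and 0.39 ± 0.25. Car9, a membrane carbonic anhydrase that is among the most sensitive hypoxia markers in tumours, differed by 0.00 ± 0.11 and 0.02 ± 0.11, with all 20 arrays between 4.43 and 5.02. Adm, which encodes the vasodilator adrenomedullin, differed by 0.31 ± 0.17 and 0.11 ± 0.17. Ndrg1, a stress-induced differentiation gene, and Ddit4, an inhibitor of mTORC1 signalling, differed by -0.23 ± 0.14 and -0.18 ± 0.15 in knockouts and by -0.32 ± 0.14 and -0.30 ± 0.15 in controls, below 0 but short of the test. P4ha1 and P4ha2, subunits of the collagen prolyl hydroxylase, differed by -0.03 ± 0.16 and 0.10 ± 0.15 in knockouts and by -0.01 ± 0.16 and -0.19 ± 0.15 in controls.

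**Figure D2:**
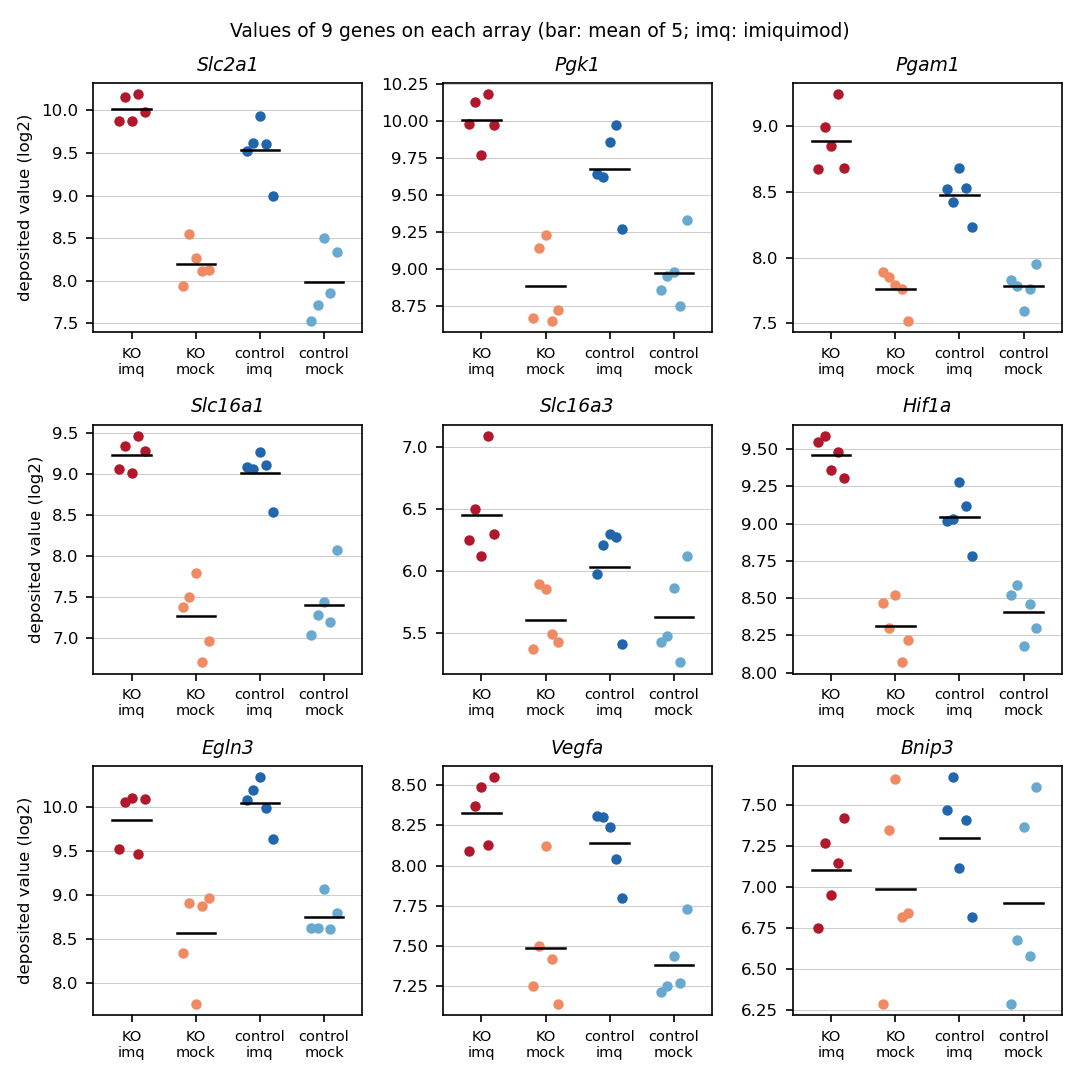
Deposited log2 values of 9 members on each of the 20 arrays, with the mean of each group of 5 as a bar and separate vertical scales that do not start at 0. Slc2a1, Pgam1, Slc16a1, Hif1a and Egln3 separate imiquimod from mock arrays in both genotypes, and the 4 groups of Bnip3 overlap.

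Knockout skin was next set against control skin within each treatment, the comparison that asks what loss of Zfp36 in keratinocytes adds. Under imiquimod 0 of 33 members passed in the limma fit, where 0.546% of all genes did. Without adjustment 8 members (24.2%) had a p under 0.05, as did 2218 of all 22180 genes, and of the 8 members 7 were higher in knockouts and Ldhb was lower. The difference was above 0 for 27 of the 33 members, or 81.8%, against 51.7% of all genes, and its median was 0.13 against 0.01 for all genes. Of all 33 members, 19 had their highest group mean in imiquimod-treated knockouts, or 57.6%, against 30.5% of all genes.

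Hif1a came nearest to the threshold. Every imiquimod-treated knockout array of Hif1a, 9.31 to 9.59, lay above every imiquimod-treated control array, 8.78 to 9.28, as held for no other member and for 1.30% of all genes. The difference was 0.41 ± 0.11 (95% interval 0.19 to 0.63), with an adjusted p of 0.0937. It passed when replicate 3 of the imiquimod-treated controls was left out (0.47, adjusted p = 0.0459). The second probe set of Hif1a differed by 0.09 in this comparison (adjusted p = 0.899), so the 2 probe sets differ here. Pgam1 differed by 0.41 ± 0.11 (95% interval 0.18 to 0.64, adjusted p = 0.118), while its second probe set differed by -0.08 (adjusted p = 0.953 over all probe sets). Slc2a1 differed by 0.48 ± 0.18 (95% interval 0.11 to 0.85, adjusted p = 0.316). Slc16a3 differed by 0.42 ± 0.20, Pgk1 by 0.33 ± 0.14, Pfkl by 0.31 ± 0.14 and Pfkfb4 by 0.24 ± 0.11, with adjusted p between 0.414 and 0.494. The widest difference in the other direction was that of Pdk4, -0.65 ± 0.33 (95% interval -1.34 to 0.05, adjusted p = 0.542).

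In mock-treated skin 0 of 33 members passed, where 0.00902% of all genes did, and none had an unadjusted p under 0.05 in the limma fit. The median difference was -0.01, and single members ran from -0.38 for Pdk4 to 0.28 for Pfkfb3. The responses of both genotypes were also set against each other: 0 of 33 members passed, where 0.018% of all genes did, and 3 (9.09%) had an unadjusted p under 0.05, a share near the 6.75% of all genes. These were Hif1a, with a response larger by 0.51 ± 0.15 in knockouts (adjusted p = 0.514), Pgam1, larger by 0.43 ± 0.16 (adjusted p = 0.625), and Pgk1, larger by 0.43 ± 0.20 (adjusted p = 0.731). The second probe set of Hif1a had a difference of 0.27 and that of Pgam1 one of -0.09 (adjusted p = 0.84 and 0.977 over all probe sets). The response of Egln1 was larger by 0.01 ± 0.16 in knockouts and that of Egln3 differed by -0.02 ± 0.28, with 95% intervals of -0.31 to 0.33 and -0.61 to 0.58.

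**Figure D3:**
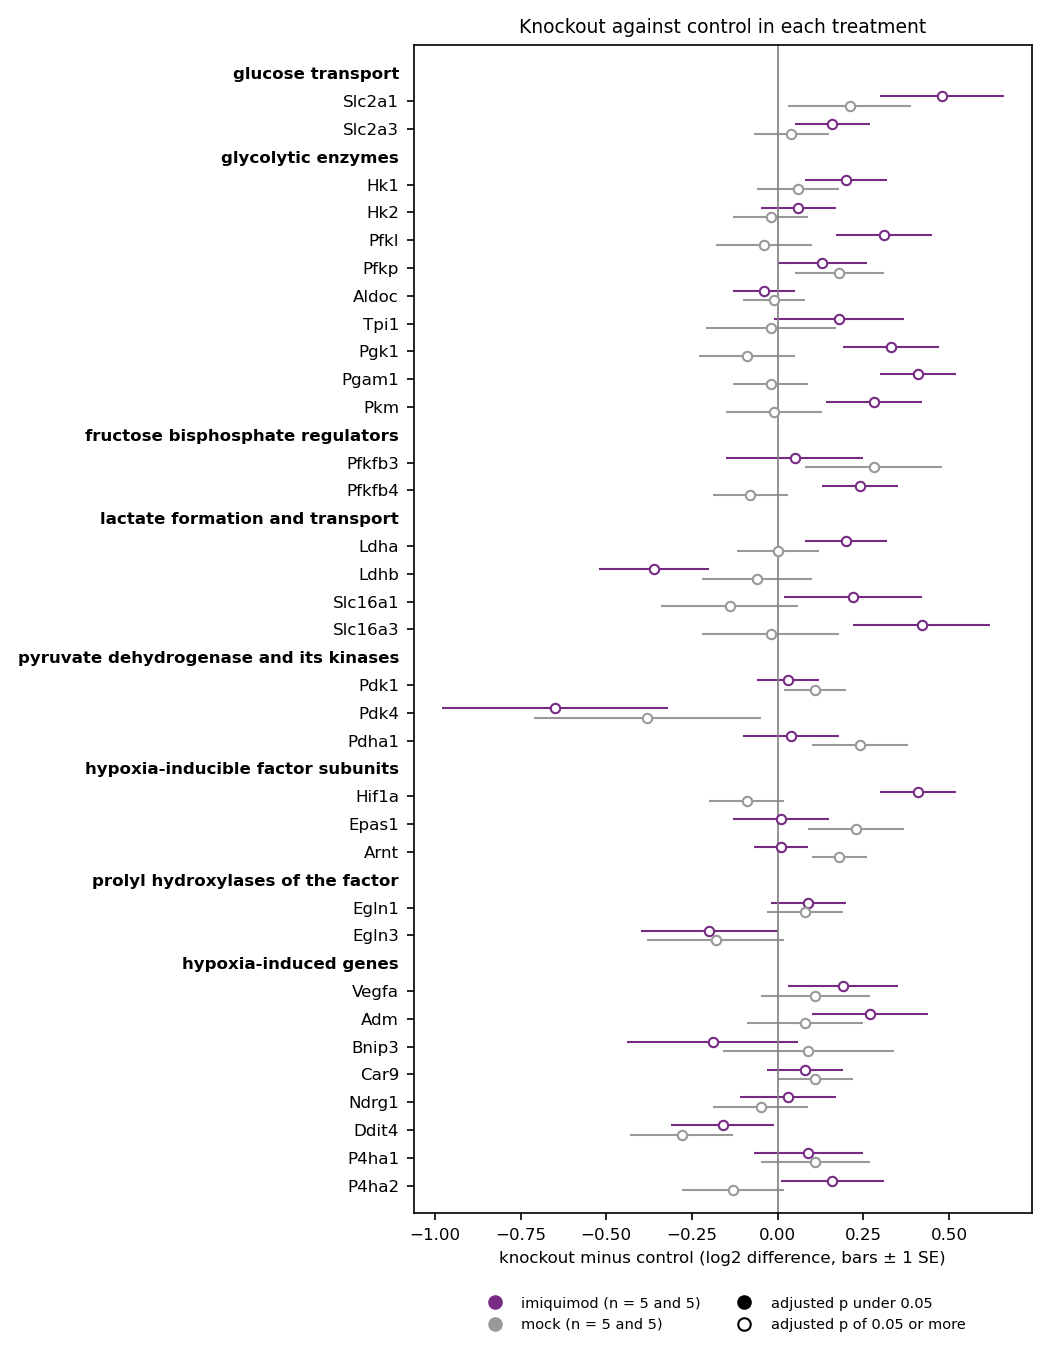
Log2 difference of knockout over control skin for the 33 members, with imiquimod (upper point of each pair) and with mock treatment (lower point), bars of 1 standard error and 5 arrays a group. All points are open, since 0 of 33 members passed in either treatment, and 27 of the 33 points for imiquimod lie to the right of 0.

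Many members lay at an extreme of their group on the 4 arrays that stood apart in hair genes. In imiquimod-treated controls, replicate 5, high in hair genes, had the lowest of the 5 values for 27 of the 33 members (81.8%, against 24.1% of all genes). In imiquimod-treated knockouts, replicate 1, also high in hair genes, was lowest for 14 members (42.4%, against 22.5% of all genes). Where mock-treated skin was low in hair genes the members were high: replicate 3 of the mock-treated knockouts had the highest value for 16 members (48.5%, against 27.1% of all genes), and replicate 5 of the mock-treated controls for 18 (54.5%, against 29.3% of all genes). Replicate 4 of the imiquimod-treated knockouts, next highest there in hair genes at 7.42, did not follow throughout. It had that group's highest Slc2a1 (10.19), Pgk1 (10.18), Pkm (10.94) and Slc16a1 (9.46), although its Ldhb (6.06) and Egln3 (9.46) were lowest. The 4 arrays apart in hair genes were named by those genes, not by the members. The same 4 arrays were also extremes of their groups in the mean of 22 skeletal muscle genes, in the members' direction. Replicate 1 of the imiquimod-treated knockouts (7.86) and replicate 5 of the imiquimod-treated controls (8.47) were lowest. Replicate 3 of the mock-treated knockouts (9.40) and replicate 5 of the mock-treated controls (9.69) were highest. The means of 8 T cell genes and of 14 endothelial genes were extremes on these arrays in the same direction. For T cells these were 4.68, 5.44, 4.77 and 5.45, in the order knockouts with imiquimod and mock, then controls with imiquimod and mock. The last endothelial value tied with replicate 3 of its group (6.38). Not all lists did so: the adipocyte mean of replicate 1 of the imiquimod-treated knockouts was 6.98, above that group's lowest (6.74). The parts of hair, muscle, T cells and endothelium in this pattern cannot be told apart on these arrays.

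**Figure D4:**
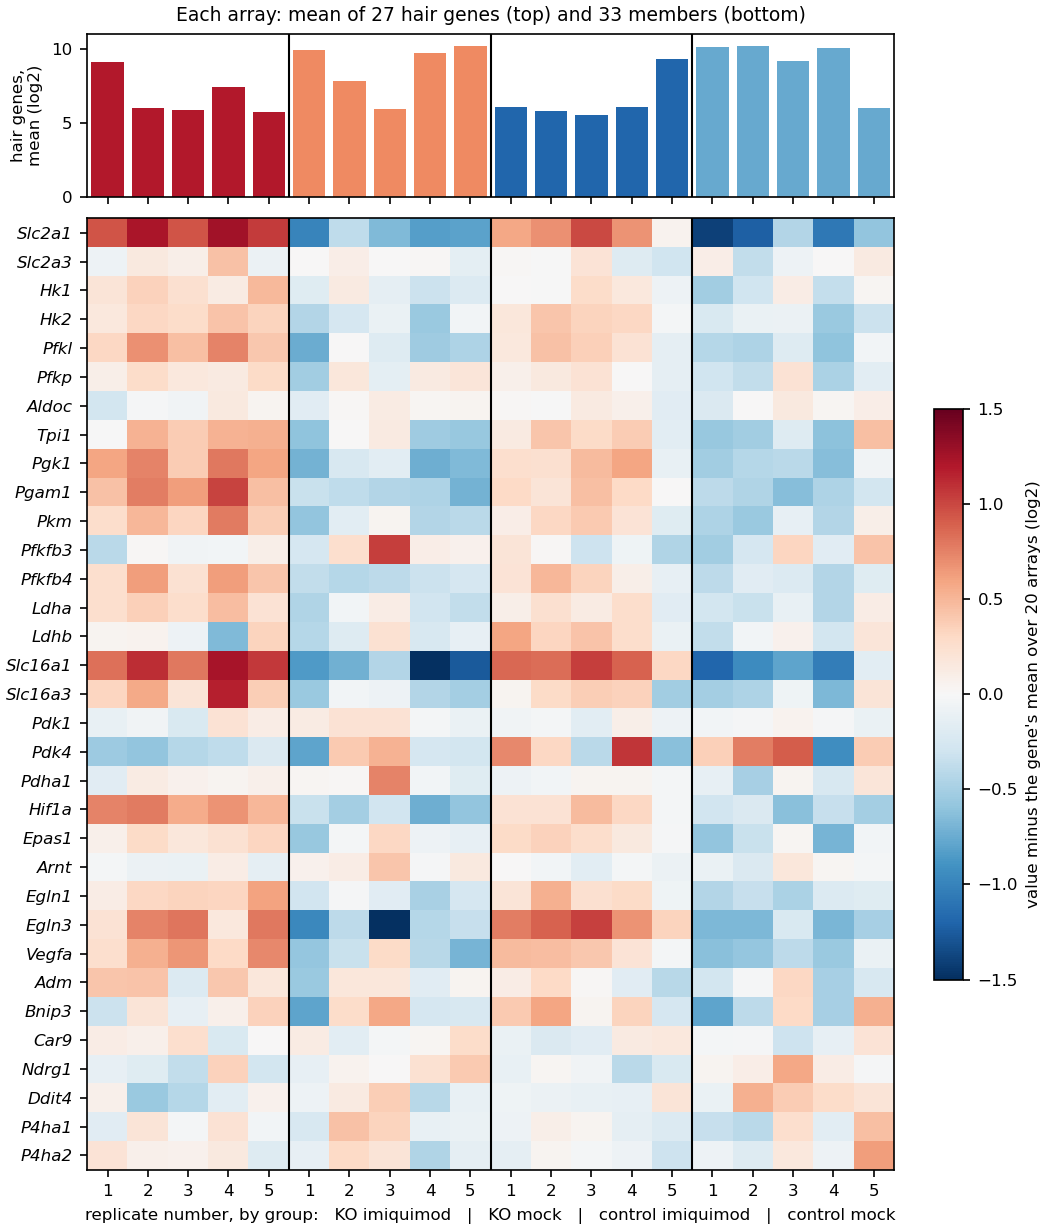
Top, mean log2 level of 27 hair genes on each array; bottom, each member's value minus its mean over the 20 arrays, with arrays ordered by group and replicate number. The column of replicate 5 of the imiquimod-treated controls, whose hair mean was 9.32, is paler than its neighbours for most members that rose.

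With these 4 arrays left out, 17 of 33 members rose in knockouts and 18 in controls. Among all genes the share called in either direction was then 21.3% in knockouts and 16.2% in controls, against 20.8% and 10.8% with all arrays. In controls Tpi1, Ldha, Ldhb, Slc16a3 and Bnip3 then passed as well, with differences of 0.78, 0.47, 0.55, 0.68 and 0.69, and in knockouts Epas1 did (0.45, adjusted p = 0.0278). With the mean of the hair genes as a covariate on all 20 arrays, 15 members rose in knockouts and 8 in controls. Among all genes the share called in either direction was 24% in knockouts and 9.46% in controls in this setting. Hk1 in knockouts (adjusted p = 0.0572) and Hk2, Pfkl, Pkm, Pfkfb4 and Epas1 in controls (adjusted p = 0.0507, 0.163, 0.413, 0.0535 and 0.228) lost their calls. Pfkfb3 then fell, by 0.64 in knockouts and by 0.53 in controls. Slc2a1, Pgk1, Pgam1, Slc16a1, Hif1a, Egln1, Egln3 and Vegfa passed in both genotypes under each of these 3 settings. For Pgam1 this holds for the brighter probe set, while its second probe set did not pass with all arrays (0.12 in knockouts and 0.21 in controls). Hair level and treatment moved together in most animals, and their parts in the calls that were lost cannot be told apart.

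**Figure D5:**
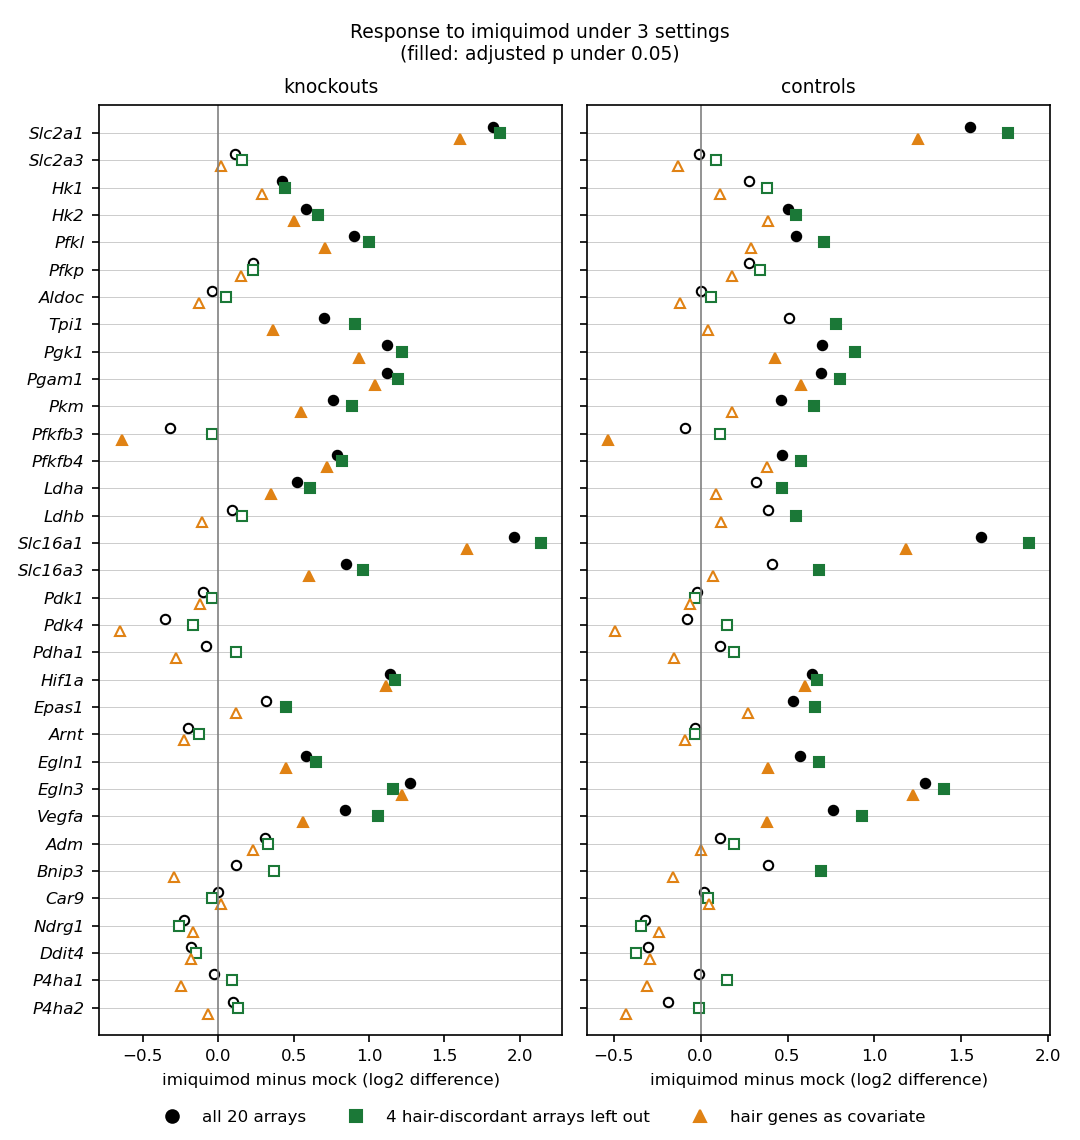
Log2 difference of imiquimod over mock skin for the 33 members in knockouts (left) and controls (right), with all 20 arrays, without the 4 arrays that stand apart in hair genes, and with hair genes as a covariate; filled symbols passed an adjusted p of 0.05. Triangles lie left of the other symbols for most members, and Slc16a1 stays at 1.18 or more in every setting.

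Other cell types of the skin moved with the same comparisons. Among all genes 11.1% rose and 9.71% fell in knockouts, and 6.47% rose and 4.37% fell in controls. The counts of these lists, and of muscle and fat below, are read against those shares. Of 20 genes of stressed keratinocytes 17 rose in both genotypes, and the list's array means were 9.71 to 10.13 in imiquimod-treated knockouts, against 5.80 to 6.29 in mock-treated knockouts, and 8.03 to 9.63 in imiquimod-treated controls, against 5.37 to 5.75 in mock-treated controls. Of 9 basal keratinocyte genes 4 rose and 1 fell in knockouts, and 3 rose and none fell in controls, with list medians of 0.18 and 0.13. Among them Krt14 rose by 1.27 in knockouts and 0.85 in controls, and Dst fell by 0.62 in knockouts. Of 18 neutrophil genes 12 rose in knockouts and 4 in controls, with array means of 5.73 to 7.42 in imiquimod-treated knockouts, against 4.71 to 5.52 in imiquimod-treated controls. S100a8 and S100a9, which rose by 5.62 and 5.11 in knockouts, are on both this list and that of stressed keratinocytes. Endothelial genes, of interest beside Vegfa and Epas1, numbered 1 of 14 higher and 1 lower in knockouts, and 1 higher and none lower in controls. Of 15 fibroblast genes 6 fell in knockouts and 7 in controls, and none rose. Of 17 genes of monocytes and macrophages 5 rose in each genotype, while 1 fell in knockouts and 2 in controls. Of 12 sebaceous gland genes 3 rose and 2 fell in knockouts, and 5 rose and 1 fell in controls. Of 8 T cell genes 2 fell in knockouts, and none rose. The part of these cells in the members' changes was not tested.

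Genes of skeletal muscle and fat, tissues that lie beneath the skin, also moved. Of 22 skeletal muscle genes 14 fell and 1 rose in knockouts after imiquimod, none fell and 1 rose in controls, and the array means were 7.86 to 8.51 in imiquimod-treated knockouts, against 8.47 to 9.36 in imiquimod-treated controls. With the muscle mean as a covariate 6 members passed as higher in knockouts than in controls under imiquimod: Slc2a1 by 0.81, Tpi1 by 0.72, Pfkl and Pgk1 by 0.62 each, Pkm by 0.59 and Ldha by 0.47, with adjusted p from 0.0108 to 0.0456, where 0.83% of all genes were called in either direction. In the same setting 19 members rose after imiquimod in knockouts, Bnip3 (0.83), Epas1 (0.65) and P4ha2 (0.43) among them, where 18.9% of all genes were called in either direction. In knockouts the muscle means of treated and mock arrays did not overlap (7.86 to 8.51 against 8.60 to 9.40). Under imiquimod those of the genotypes overlapped only narrowly. Muscle level thus moved with the groups compared, and their parts in these calls cannot be told apart. Of 16 adipocyte genes 8 fell and 1 rose in knockouts, and 1 fell and 1 rose in controls; the gene that rose was Cidea, by 1.06 and 1.52. With their mean as a covariate Vegfa alone passed as higher in imiquimod-treated knockouts than in controls (0.41, adjusted p = 0.0343), where 0.338% of all genes were called.

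Neighbouring pathway genes, from lists outside the 33 members, were counted in the same fit, and their counts are read against the 11.1% of all genes that rose and 9.71% that fell in knockouts, and the 6.47% and 4.37% in controls. Of 39 other genes of glycolysis and sugar use 3 rose and 9 fell in knockouts after imiquimod, and 1 rose and 4 fell in controls. This list includes muscle isoforms of the enzymes, and 14 of 22 skeletal muscle genes fell in knockouts and none in controls. The part of muscle in these falls was not tested. Pgd, an enzyme of the oxidative pentose phosphate pathway, rose by 0.78 ± 0.14 in knockouts and 0.60 ± 0.14 in controls. Slc2a12, a further glucose transporter, fell by 1.48 in knockouts and by 0.93 in controls, and the glycogen phosphorylase Pygb fell by 0.62 and by 0.32. Of 10 other genes that govern entry of pyruvate into mitochondria, Pdk2 alone fell in knockouts, by 0.61, and 0 were called in controls by limma (0 higher and 0 lower). Of 18 citrate cycle genes 2 rose in knockouts, Mdh2 by 0.34 and Sdhd by 0.55, and 1 in controls, Cs by 0.31; Sucla2 fell in both, by 0.24 and by 0.28. The shares of citrate cycle genes that rose, 11.1% in knockouts and 5.56% in controls, were near those of all genes.

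Among 14 other genes of oxygen sensing 2 rose and 3 fell in knockouts, and none rose and 1 fell in controls. The ubiquitin ligase Siah2, which acts on the prolyl hydroxylases, rose by 0.40 in knockouts, while Siah1a, a ligase of the same family, fell by 0.64 (adjusted p = 0.0187 and 0.000245). Cited2, which competes with the factors for a coactivator, fell by 0.63 in knockouts, and Cited4 fell in both genotypes, by 0.52 each. Of 45 other hypoxia-induced genes 14 rose and 6 fell in knockouts, and 10 rose and 4 fell in controls, so that 31.1% rose in knockouts and 22.2% in controls. Fam162a, which encodes a mitochondrial protein induced with HIF1A, rose by 1.57 ± 0.16 in knockouts and 1.33 ± 0.16 in controls. Hilpda, a lipid droplet protein, rose by 0.86 ± 0.11 and 0.65 ± 0.11. Plod2, a collagen lysyl hydroxylase, fell by 1.45 and by 1.36, and Angptl4, an inhibitor of lipoprotein lipase, by 0.96 in each. Under imiquimod 2 of these 45 genes (4.44%) were higher in knockouts than in controls, against 0.374% of all genes. P4hb, a protein disulfide isomerase that is also the beta subunit of the collagen prolyl hydroxylase, was higher by 0.37 (adjusted p = 0.0377). The transcription factor Bhlhe40 was higher by 0.37 (adjusted p = 0.0453).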

How the data were processed

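Total RNA (200 ng) of abdominal skin was labelled for Affymetrix arrays with the WT PLUS chemistry, as the labels describe it. Values of 41345 probe sets on 20 arrays were deposited by the authors in a single table. They were taken as log2 from their range (1.41 to 13.33), because the sources used here name neither a log base nor a summarisation, normalization or software. Detection calls were not used. Each group held 5 animals, and the number of arrays limits the precision.

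Probe sets were named through the platform annotation: 23521 had 1 symbol, 1814 several and 16010 none. The brightest single-symbol probe set stood for each of 22180 genes, with no filter on dim genes. The deposited log2 values were fitted with limma 3.58.1 (lmFit, then eBayes) in R 4.3.3, using a single model for the 20 arrays with a mean for each group (16 residual and 3.99 prior degrees of freedom). P-values are two-sided and were adjusted by the Benjamini-Hochberg method across all 22180 genes, and 0.05 was the threshold. Folds are antilogs of the log2 differences. Intervals of 95% come from the same fit. The fit was tested on simulated data with changes added to the imiquimod-treated knockouts. It recovered 61.2% of changes of 0.5 on the log2 scale, 95.5% of changes of 1 and 97% of changes of 2. Of 174 calls 5 were false. Noise was drawn independently for each gene, so variation that genes share, such as that of hair genes, was not simulated. Members, their roles, the 5 lists of other pathway genes and the 12 marker lists were chosen with earlier results of these data known, so no list is independent evidence of its direction.

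All members could be named; of each other pathway list and contrast, up to 3 rises and 3 falls past the threshold with the smallest p; of each marker list, its count, array means and up to 2 members past the threshold; Zfp36 throughout. The alternatives tried were a fit of the compared groups alone, a replicate block, an intensity trend or a robust prior, array weights, quantile normalization, median centring, averaged probe sets per gene, a test of all probe sets singly, omission of the 30% dimmest genes, hair, muscle or fat genes as a covariate, omission of the 4 arrays discordant in hair genes, and omission of each array in turn. Promoter windows were read from RefSeq (GRCm38.p6).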

Additional observations from a re-analysis of the deposited data

Results flagged for a closer look

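In 11 of 180 groups of 5 tested, 6.11%, 1 array lay far from the other 4 by Dixon's criterion; chance gives about 1 in 20. Of these, 6 concern members. Pfkfb3 was low at 5.98 in replicate 1 of the imiquimod-treated knockouts. Slc16a1 was low at 8.53 in replicate 5 of the imiquimod-treated controls, and Ddit4 high at 6.63 on that same array. Pdha1 was low at 8.62 in replicate 1 of the imiquimod-treated knockouts and high at 9.54 in replicate 3 of the mock-treated knockouts. Ndrg1 was high at 8.90 in replicate 3 of the mock-treated controls.

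The other 5 concern marker lists. The hair list was high at 9.32 in replicate 5 of the imiquimod-treated controls and low at 5.98 in replicate 5 of the mock-treated controls. The endothelial list was low at 5.93 in replicate 5 of the imiquimod-treated controls. The basal keratinocyte list was high at 8.44 in replicate 3 of the mock-treated controls. The neutrophil list was high at 7.42 in replicate 4 of the imiquimod-treated knockouts. Of the 6 outlying member values, 5 lay on arrays that also stood apart in hair genes.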

How the results depend on the processing

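Of 5577 member values recomputed under alternatives, none that had passed the test changed sign, and 180 that passed in neither setting did. Leaving out 1 array at a time gave 16 to 17 called members for imiquimod in knockouts, 11 to 15 in controls, 0 to 1 for knockout against control under imiquimod (Hif1a, without replicate 3 of the imiquimod-treated controls), and 0 for both other comparisons. Knockout against control under imiquimod gave 1 called member with array weights (Hif1a), 1 with the hair covariate (Pgam1, adjusted p = 0.0427), 6 with the muscle covariate and 1 with the fat covariate, against 0 as reported. Among all genes 1.09%, 1.55%, 0.83% and 0.338% were called in these settings, against 0.546% as reported. Imiquimod in controls gave 9 called members with the hair covariate, 8 of them higher, and 19 with array weights. The shares of all genes called were 9.46% and 16.7%, against 10.8% as reported. The median over members in controls was 0.09 with the hair covariate and 0.55 without the hair-discordant arrays; in knockouts it was 0.65 with the muscle covariate and 0.58 with the fat covariate. Under imiquimod the median of knockout against control was 0.38 with the muscle covariate, and that of the difference in responses 0.35. The cause was not tested.

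Replicate numbers are shared by the groups, but deviations of same-numbered arrays correlated at -0.0147 on average (-0.709 to 0.516, 14 of 30 pairs above 0.1), and 2 of 20 arrays correlated best with their own number, so the numbers were not taken as pairs. With the replicate block 16 members were called for imiquimod in knockouts, 12 in controls (Pkm lost, adjusted p = 0.0503) and 0 in the other 3 comparisons. Of all genes 19.1% were then called in knockouts and 9.18% in controls. Signal over background is unknown, which limits dim members such as Slc2a3 and Car9.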
